A study of Homo sapiens with 12 samples.

Results

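The replication-dependent histone genes of human chromosome 6 were described by their histone marks in HepG2 cells, a widely used human liver cancer line. The members were the regions of 3 pooled peak lists that overlapped 26 to 26.3 Mb (the first block, 300 kb) or 27.05 to 27.9 Mb (the second block, 850 kb) of chromosome 6 in GRCh37. These were taken as the blocks of the gene cluster formerly named HIST1. There were 299 such regions of 273551 on chromosomes 1 to 22 and X: 69 of 24446 H3K4me3 regions, 57 of 66513 H3K27ac regions and 173 of 182592 H3K4me1 regions. They were taken by position, with no filter on their values. The members and limits were chosen with earlier results of these data known. The lists came from ChIP-seq, where chromatin fragments pulled down with an antibody to 1 histone mark are sequenced. Each mark had 3 libraries of untreated HepG2 cells, and 3 further libraries, titled input but labelled with an anti-mouse IgG antibody, formed the control group. The labels name no step that held the cells at a stage of the cell cycle. Each list pooled the 3 libraries of its mark, going by its name. The deposited lists therefore hold no replicate values, the depth of each library is unknown, and no difference below was tested against the spread between cultures.

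Replication-dependent histone genes encode the core histones H2A, H2B, H3 and H4 and the linker histone H1, on which newly copied DNA is packed. They are short genes without introns, transcribed mainly in S phase, and their mRNAs end in a stem-loop in place of a poly(A) tail. Many sit in close groups that mix the families, genes of 1 family encode nearly the same protein, and the groups gather in nuclear bodies with the transcription coactivator NPAT. H3K4me3 is a methylation found mainly at promoters in use, H3K27ac an acetylation of active promoters and enhancers, and H3K4me1 a methylation of enhancers and promoter flanks.

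In RefSeq order, with the genes of build GRCh38.p14, the cluster from H1-1 to H2BC17 held 53 protein-coding histone genes in 3 groups. The first group ran from H1-1 to H4C8 and had 32 histone genes (5 for H1, 4 for H2A, 8 for H2B, 7 for H3 and 8 for H4). These were among 43 genes, of which 33 were protein-coding, so the group was not made of histone genes alone. The second, from H2BC11 to H2AC12, had 5. The last, from H2BC13 to H2BC17, had 16. No histone gene lay between the second group and the last, where RefSeq lists 51 tRNA genes and 5 protein-coding genes among 77. Since that annotation is of another build than the regions, no region was assigned to a gene, and the parts of the second block were divided at 27.15 and 27.75 Mb, limits rounded from general knowledge. They are called its left part (100 kb), middle part (600 kb) and right part (150 kb) below. The first block with the left and right parts is called the histone gene parts. The name does not mean that each region there belongs to a histone gene.

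The promoter letters are shown for the first gene of each family in name order that has an entry, to let the promoters of the 5 families be compared. Each line gives the 250 bases before the start of transcription in RefSeq, 5′ to 3′ on the gene's strand, with capitals for the matched motifs on either strand. These are the TATA box TATAAA, the CCAAT box, and ATTTGCAT, the octamer. Their positions are in GRCh38.p14 and cannot be read against the GRCh37 positions of the regions.
H1-1 (GRCh38.p14 chr6:26017788-26018037, minus strand): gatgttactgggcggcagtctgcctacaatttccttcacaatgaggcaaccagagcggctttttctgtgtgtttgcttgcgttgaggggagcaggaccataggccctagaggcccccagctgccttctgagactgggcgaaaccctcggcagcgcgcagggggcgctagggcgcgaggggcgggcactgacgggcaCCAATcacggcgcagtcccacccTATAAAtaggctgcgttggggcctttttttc
H2AC4 (GRCh38.p14 chr6:26033619-26033868, minus strand): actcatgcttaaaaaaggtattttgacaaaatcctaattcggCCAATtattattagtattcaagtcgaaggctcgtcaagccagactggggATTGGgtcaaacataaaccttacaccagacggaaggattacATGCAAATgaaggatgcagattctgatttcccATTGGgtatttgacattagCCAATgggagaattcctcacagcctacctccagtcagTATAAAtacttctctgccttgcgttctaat
H2BC3 (GRCh38.p14 chr6:26043714-26043963, minus strand): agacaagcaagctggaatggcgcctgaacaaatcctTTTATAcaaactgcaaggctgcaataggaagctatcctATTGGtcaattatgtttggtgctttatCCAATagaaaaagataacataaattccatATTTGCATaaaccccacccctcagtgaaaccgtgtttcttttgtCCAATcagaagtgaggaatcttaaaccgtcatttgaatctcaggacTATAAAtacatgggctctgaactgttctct
H3C1 (GRCh38.p14 chr6:26020201-26020450, plus strand): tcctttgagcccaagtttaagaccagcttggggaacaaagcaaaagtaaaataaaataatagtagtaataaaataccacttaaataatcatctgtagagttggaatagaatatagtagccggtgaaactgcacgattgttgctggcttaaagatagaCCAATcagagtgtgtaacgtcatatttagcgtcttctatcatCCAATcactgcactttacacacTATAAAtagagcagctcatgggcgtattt
H4C2 (GRCh38.p14 chr6:26027284-26027533, minus strand): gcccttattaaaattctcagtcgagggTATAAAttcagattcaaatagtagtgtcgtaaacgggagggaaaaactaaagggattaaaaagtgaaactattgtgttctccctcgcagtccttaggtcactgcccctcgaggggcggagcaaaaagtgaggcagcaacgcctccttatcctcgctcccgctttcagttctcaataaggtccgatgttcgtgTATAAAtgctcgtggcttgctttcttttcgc

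Of the 53 genes 48 had a promoter entry, and H4C1, H4C3, H2AC12, H3C11 and H3C12 had none. The TATA box places the start of transcription, the CCAAT box binds NF-Y, and the octamer binds POU factors such as OCT1, a known activator of H2B genes. TATAAA occurred in 32 of the 48 genes (66.7%), against 13% of 27305 genes with entries. It lay within 40 bases before the start on the gene's strand in 24 genes (50%), against 3.09%. CCAAT was present in 41 genes (85.4%, against 37.0%), which included each H1, H2A, H2B and H3 gene with an entry but 3 of 10 H4 genes. The octamer was present in 11 of 14 H2B genes and 8 of 10 H2A genes, in 1 of 8 H3 genes and in no H1 or H4 gene, against 2.03% of all genes. In H2BC3 it lies 120 bases before the start and reads on the gene's strand, while in H2AC4 it lies 118 bases before and reads on the other strand. Windows of neighbouring genes can be the same DNA. Among genes with an entry there were 8 neighbouring pairs of an H2A and an H2B gene that point away from each other. They had 194 to 248 bases between their starts, such as H2BC4 and H2AC6 with 246. Pairs with a gene that has no entry could not be counted. The H2A and H2B counts are therefore not independent.

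Over both blocks all 3 marks were denser than in the whole list, with the highest ratio for H3K4me3. The 69 H3K4me3 regions came to 60.0 per Mb over both blocks, against 8.06 per Mb in the whole list up to the last region of each chromosome, a ratio of 7.44. The ratio was 2.26 for H3K27ac (49.6 per Mb) and 2.50 for H3K4me1 (150.4 per Mb). In the 750 kb between the blocks, which hold butyrophilin and tRNA genes, H3K4me3 had 37.3 regions per Mb, H3K27ac 50.7 and H3K4me1 138.7, so that the wider neighbourhood was also dense. In the middle part H3K27ac had 21.7 per Mb, a ratio of 0.991 to the list. H3K4me3 regions covered 17.2% of the first block and 18.7% of the right part, but 7.54% of the middle part and 1.49% of the chromosomes up to the last region. Their summits stood close together. The median distance between neighbouring H3K4me3 summits was 11347 bp in the first block, 13034 bp in the left part, 15125 bp in the middle part and 8852 bp in the right part, against 33324 bp over the whole list. It was 11559.5 bp between the blocks, so close spacing was shared with the neighbouring area. The middle part, with 53.3 H3K4me3 regions per Mb, was nearly as dense as the histone gene parts (67.3) but differed from them in acetylation, as follows.

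**Figure D1:**
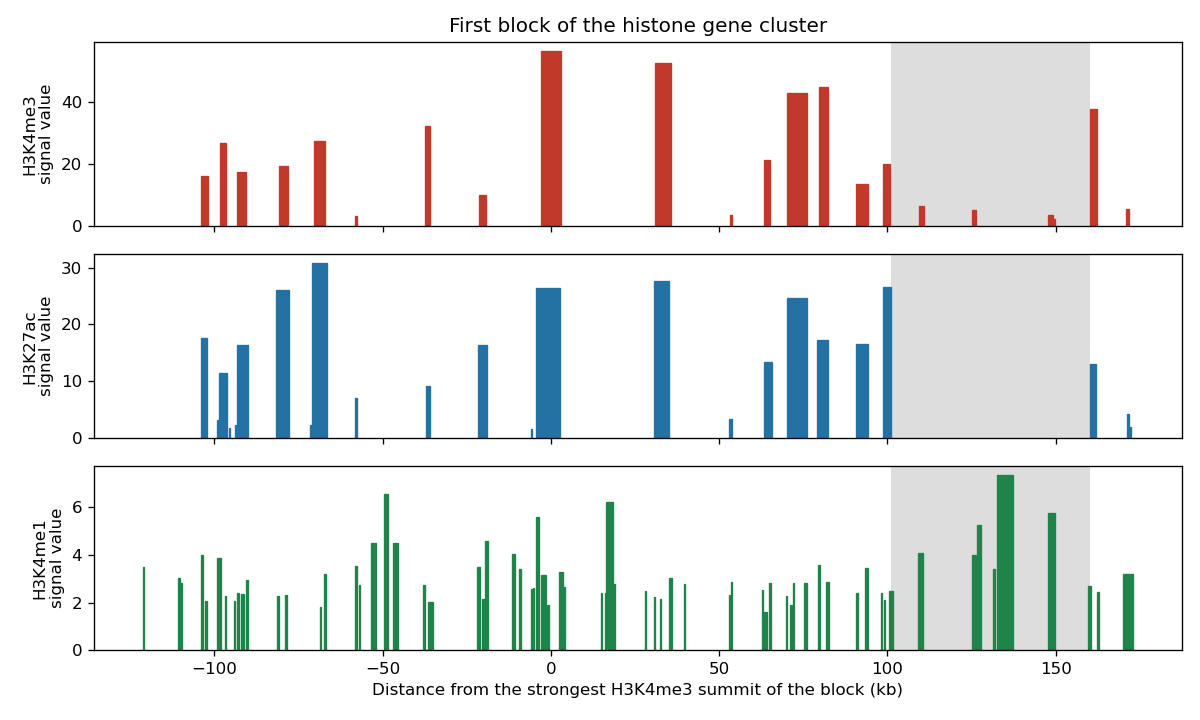
Regions of the first block by distance from its strongest H3K4me3 summit (x axis, kb) and signal value (y axis), with bars as wide as the regions: H3K4me3 above, H3K27ac in the centre, H3K4me1 below. Within the grey stretch 4 weak H3K4me3 regions and 6 H3K4me1 regions lie without any H3K27ac region.

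In the first block 18 of 22 H3K4me3 regions overlapped H3K27ac (81.8%, 95% Wilson interval 61.5 to 92.7), against 77.5% of the whole list, which is close to that background. The strongest H3K4me3 region lay at chr6:26121627-26127700, 6074 bp wide, with a signal value (by its column a fold enrichment ratio) of 56.5. It was followed by chr6:26155669-26160419 (signal value 52.6), chr6:26204246-26207061 (44.9), chr6:26194969-26200822 (43.0) and chr6:26284801-26286903 (37.8). Each of these 5 had an H3K27ac region over at least 84.8% of its length. The acetylated regions were wide as well. The widest ran from 26120311 to 26127330 (7020 bp, H3K27ac signal value 26.5), and the next from 26194822 to 26200862 (6041 bp, 24.7) and from 26155324 to 26159820 (4497 bp, 27.7). All 3 lay over one of the 5 strongest H3K4me3 regions, so that the marks traced the same stretches.

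The order of strength was not the same for both marks. The strongest H3K27ac region of the first block, from 26053723 to 26058022 with a signal value of 30.8, lay over an H3K4me3 region of signal value 27.5, at percentile 61.1 of the H3K4me3 list. The H3K4me3 region at chr6:26087289-26088929 was stronger (32.4), but its H3K27ac region had a signal value of 9.12. Over the 18 H3K4me3 regions with H3K27ac, the log2 signal values of the marks had a Pearson r of 0.74, compared with 0.48 over 18955 such regions of the whole list. It was 0.51 over the 30 such regions of all histone gene parts and 0.52 over the 42 of both blocks, close to the list. In the second block it was 0.71 over 12 regions of the middle part, 0.84 over 9 of the right part and -0.66 over 3 of the left part. The value of the first block was thus not particular to it. The points share the libraries of each mark, and the correlation is a description.

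A stretch of the first block held separate H3K4me3 regions without acetylation. From 26225741 to 26284956, 59216 bp between neighbouring H3K27ac regions, the list held no H3K27ac region. The 4 H3K4me3 regions there were the 4 without H3K27ac in the block, and they were weak. They lay from 26234056 to 26235592 (signal value 6.55), from 26249853 to 26251095 (5.09), from 26272491 to 26273860 (3.75) and from 26274020 to 26274461 (2.31). The first of them was 1537 bp wide and the last 442 bp. All 4 had their summit inside an H3K4me1 region, and H3K4me1 covered a median of 99.0% of their length. Among the 6602 H3K4me3 regions of the whole list with signal values from 2.31 to 6.55, 52.8% overlapped H3K27ac and 72.4% had their summit inside H3K4me1. H3K4me1 covered a median of 88.2% of the length of these regions. H3K4me1 was strong in the stretch. Of the 6 members of the H3K4me1 list in its top 25% by signal value, 3 of them lay there, which included the strongest of both blocks, from 26257306 to 26261950 (4645 bp, signal value 7.36). The next in strength, from 26075070 to 26076180 (6.56) and from 26141234 to 26143191 (6.24), lay elsewhere in the block, each without H3K4me3 or H3K27ac. The stretch was picked out after its values were seen. A longer gap between neighbouring H3K27ac regions lay in the middle part of the second block, from 27204366 to 27356186.

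Weak H3K4me3 in the first block was not always without acetylation. Besides the region from 26274020, the weakest were chr6:26066473-26067087 (signal value 3.30) and chr6:26177888-26178592 (3.45). H3K27ac covered 100% and 99.9% of these 2 regions, with signal values of 6.99 and 3.35.

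**Figure D2:**
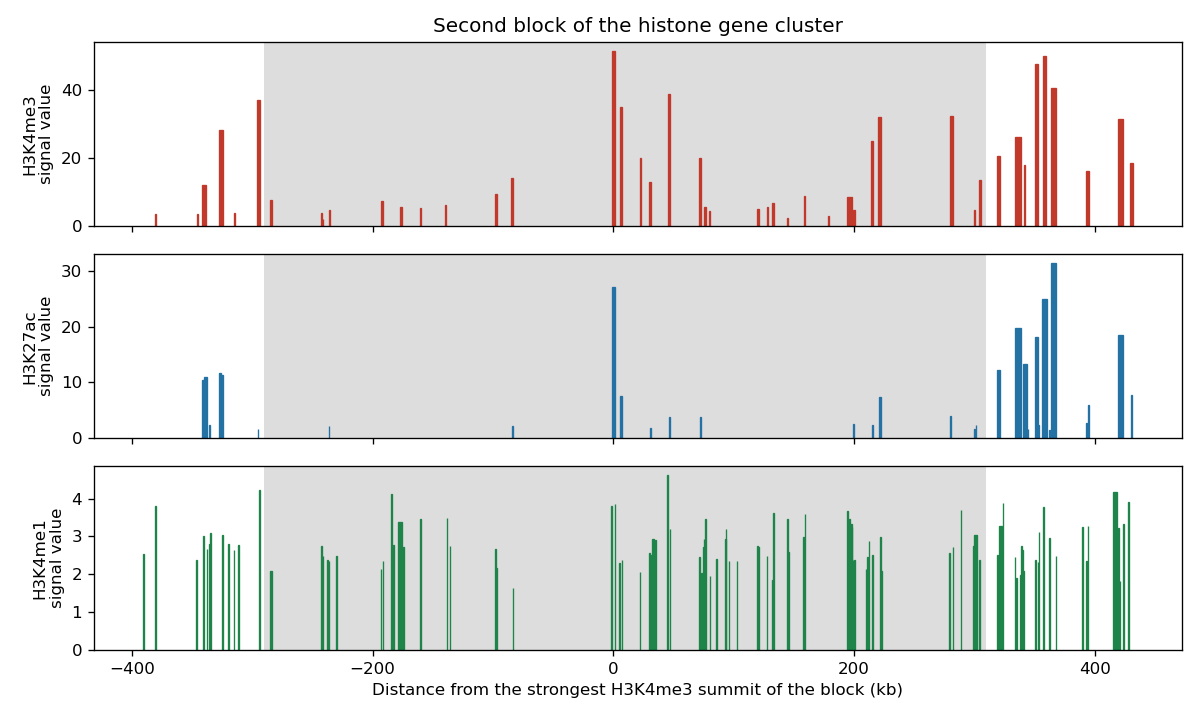
Regions of the second block, drawn as for the first, by distance from its strongest H3K4me3 summit (x axis, kb) and signal value (y axis). The grey middle part has 32 H3K4me3 regions and 13 mostly low H3K27ac regions, while the right part has 9 H3K4me3 regions, each with H3K27ac.

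The second block was uneven. In its right part each of 9 H3K4me3 regions overlapped H3K27ac, against 77.5% of the whole list, with signal values of H3K4me3 from 16.2 to 50.2. Such strength mostly went with H3K27ac in the list as well. There 95.4% of H3K4me3 regions with signal values from 13.3 to 41.9 overlapped H3K27ac, and 6111 of 6112 stronger ones. The strongest of the right part lay at chr6:27797427-27799908 (50.2), chr6:27791100-27793475 (47.8) and chr6:27803948-27808278 (40.7). H3K27ac covered 100%, 95.6% and 96.0% of them, with signal values of 24.9, 18.2 and 31.4. The widest H3K27ac regions of the block were also in the right part, from 27774288 to 27779392 (5105 bp, signal value 19.8), from 27859645 to 27864249 (4605 bp, 18.5) and from 27803880 to 27808105 (4226 bp, 31.4). At the first and second of these the H3K27ac summit lay 2446 and 2467 bp from the H3K4me3 summit, although the regions of both marks covered nearly the same bases. Over the 9 regions of the right part the median distance was 125 bp.

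In the left part 3 of 6 H3K4me3 regions overlapped H3K27ac, against 77.5% of the whole list. Those at chr6:27098893-27102432 (signal value 12.2) and chr6:27112800-27115988 (28.4) were acetylated over 96.9% and 90.3% of their length, each by 2 H3K27ac regions. The other, chr6:27144227-27146631, was the strongest of the left part (37.0), yet its H3K27ac region was 267 bp wide with a signal value of 1.63. The other 3 regions of the left part, with signal values from 3.56 to 3.77, had no H3K27ac.

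The middle part was taken to lie between the second and the last gene group. Of its 32 H3K4me3 regions 12 overlapped H3K27ac (37.5%, Wilson interval 22.9 to 54.7), against 77.5% of the whole list. The strongest H3K4me3 region of the whole second block was in the middle part, at chr6:27439306-27442160 (signal value 51.5), with H3K27ac of 27.2 over 79.6% of its length. The other acetylated regions had H3K27ac signal values of at most 7.55. That highest value was at chr6:27445710-27448000 (H3K4me3 35.2), acetylated over 56.4% of its length, and chr6:27660520-27662800 (32.1) had 7.46 over 61.0%. Others of like H3K4me3 strength had less. At chr6:27485906-27487486 the H3K4me3 signal value was 38.8 and that of H3K27ac 3.82, over 27% of the length. At chr6:27720120-27722336 they were 32.4 and 3.89, over 26.4%. At chr6:27462618-27463777 an H3K4me3 region of 20.1 had no H3K27ac region at all. The weakest H3K4me3 regions of the block were also there, at chr6:27198983-27199343 (2.08), chr6:27638653-27639169 (2.20) and chr6:27584955-27585955 (2.49), all without H3K27ac.

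**Figure D3:**
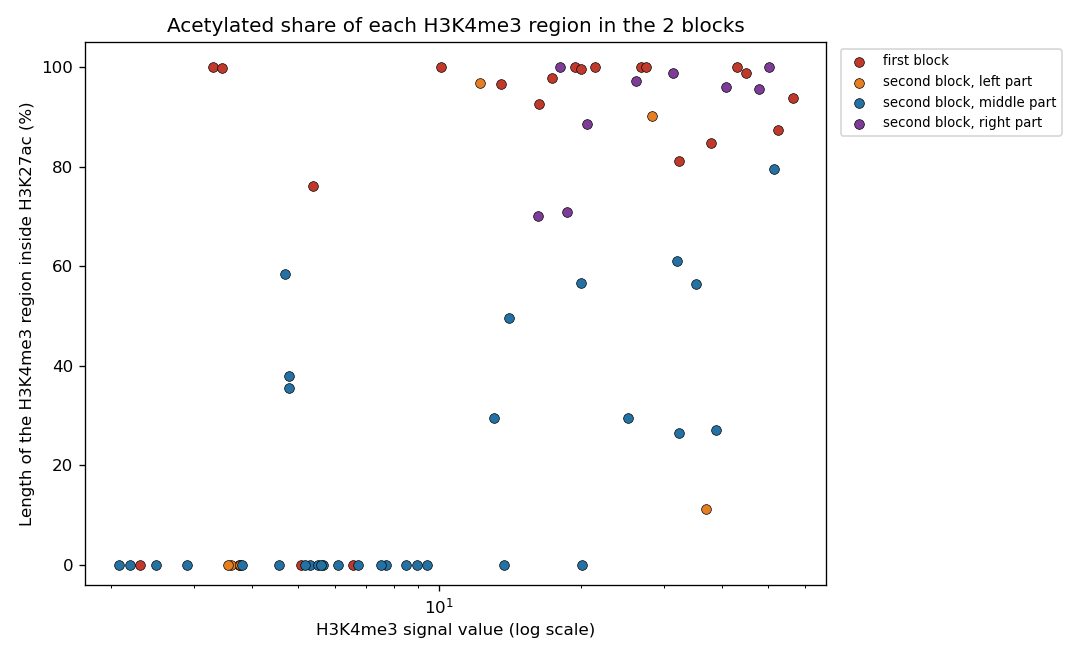
Each of the 69 H3K4me3 regions of the blocks by its signal value (x axis, log scale) and the share of its length inside H3K27ac regions (y axis, percent), coloured by part. Above a signal value of 20 the middle part lies from 0 to 79.6%, the first block from 81.2 to 100%, the right part from 88.6 to 100% and the left part at 11.1 and 90.3%.

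Taking all histone gene parts, 30 of 37 H3K4me3 regions overlapped H3K27ac (81.1%, 65.8 to 90.5). At least 50% of the length was acetylated in 29 of 37 (78.4%, 62.8 to 88.6), against 71.3% of the whole list and 5 of 32 in the middle part (15.6%, 6.86 to 31.8). Over both blocks, 42 of 69 H3K4me3 regions overlapped H3K27ac (60.9%, 49.1 to 71.5), below the 77.5% of the whole list. The same 42 of 69 H3K4me3 summits lay inside an H3K27ac region, against 76.4% of all summits. The intervals cover counting error only and take neighbouring regions as independent.

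The comparison was repeated within quartiles of the signal value in the whole H3K4me3 list. In the second strongest quartile, with signal values from 13.3 to 41.9, all 19 regions of the histone gene parts had H3K27ac, and the median acetylated share of their length was 96.6%. In the same quartile 7 of 9 regions of the middle part had it, with a median share of 29.4%, and 95.4% of all 6111 regions, with a median of 83.9%. Where present, H3K27ac had a median signal value of 13.4 in the histone gene parts (1.63 to 31.4), 3.82 in the middle part (2.16 to 7.55) and 15.3 in the list. The median H3K4me3 signal value within the quartile was 21.4, 25.2 and 29.4 respectively. Over all quartiles the middle part was weaker in H3K4me3, with a median signal value of 7.13 against 19.4 in the histone gene parts. In the next quartile, from 3.45 to 13.3, H3K27ac was present at 3 of 9 regions of the histone gene parts, 4 of 18 of the middle part and 58.8% of the list. Both were below the list there. In the weakest quartile H3K27ac was present at 2 of 3 regions of the histone gene parts, 0 of 4 of the middle part and 56.0% of the list.

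**Figure D4:**
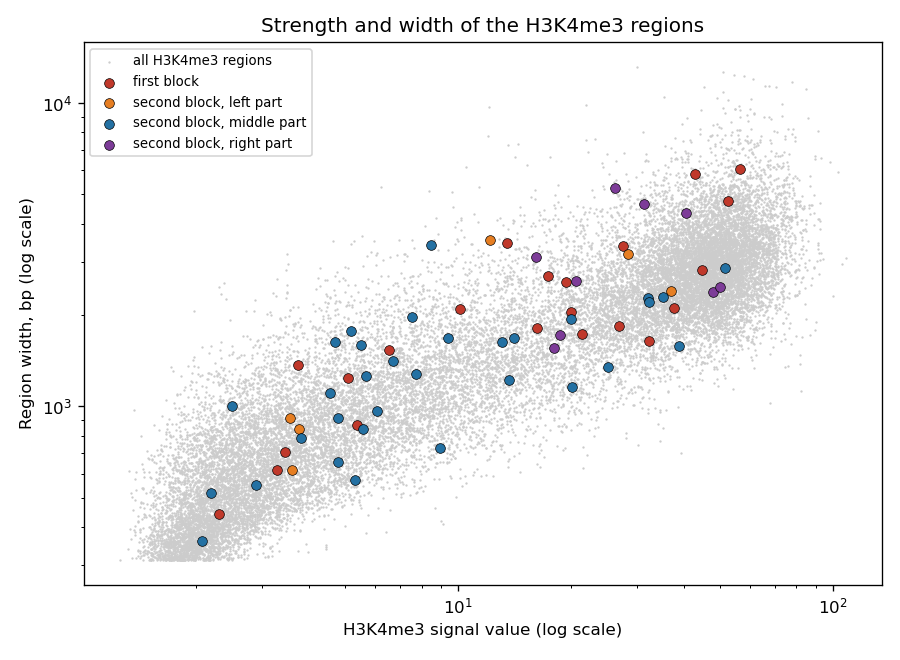
Width of H3K4me3 regions (y axis, bp, log scale) against signal value (x axis, log scale), with all 24446 regions in grey and the 69 of the blocks coloured by part. The first block and the right part reach 6074 and 5251 bp, and no region of the middle part is wider than 3412 bp.

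The H3K4me3 regions of the histone gene parts had a higher median width than the list. Their median width was 2103 bp (95% order-statistic interval 1719 to 2686, range 442 to 6074), against 1536 bp in the whole list and 1313.5 bp (963 to 1675) in the middle part. Of the 37 regions 6 were in the widest 10% of the list (16.2%, 7.65 to 31.1, against 10.0%). In the quartile from 13.3 to 41.9 their median width was 2572 bp, against 2234 bp in the list and 1680 bp in the middle part. The median signal value was 19.4 (interval 13.5 to 27.5, range 2.31 to 56.5), against 13.3 in the whole list, and 6 of 37 were in its top 25% (16.2%, 7.65 to 31.1, against 25.0%). Both intervals hold the share of the list. Of 44 H3K27ac regions in the histone gene parts, 26 were in the top 25% of that list by signal value (59.1%, 44.4 to 72.3, against 25.0%), compared with 1 of 13 in the middle part. These regions overlapped H3K4me3 more often than the list did (34 of 44, 77.3%, against 31.7%). Among regions with H3K4me3 the median H3K27ac signal value was nearly the same, 13.3 in the histone gene parts and 13.1 in the list, and 3.14 in the middle part. The median width of all 44 was 1760 bp, against 723 bp for the list. With H3K4me3 it was 2269 bp against 1817 bp, and without H3K4me3 the list had 514 bp.

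Acetylated regions in the cluster mostly overlapped H3K4me3. Of the 57 H3K27ac regions 46 overlapped H3K4me3 (80.7%, 68.7 to 88.9), against 31.7% of the list. The share was 28 of 38 between the blocks (73.7%) and 12 of 13 in the middle part (92.3%), so it did not set the histone gene parts apart from their surroundings. The 11 others were small and weak, from 232 to 670 bp wide with signal values from 1.54 to 3.14, and 10 of them lay in the histone gene parts. Their median signal value of 2.30 was near that of the 45439 regions without H3K4me3 in the list (2.50). The strongest such region reached 70.4 in the list and 18.0 in the 750 kb between the blocks, against 3.14 in the blocks.

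H3K4me1 was frequent, short and low. Its 173 regions had a median width of 573 bp and a median signal value of 2.75 (1.60 to 7.36), against 696 bp and 3.42 in the list, and 6 of 173 were in the top 25% of the list by signal value (3.47%, against 25.0%). All 6 lay in the first block. H3K4me1 touched 66 of 69 H3K4me3 regions (95.7%, 88.0 to 98.5, against 92.7%). The exceptions were chr6:27300716-27301678 (H3K4me3 signal value 6.08) and chr6:27618969-27619519 (2.90) in the middle part, and chr6:27870091-27871809 (18.7) in the right part. The first and second of them also lacked H3K27ac, 2 of 69 (against 3.78%), and the other was the 1 region of 69 with H3K27ac and no H3K4me1 (against 3.47%). Conversely, 111 of 173 H3K4me1 regions overlapped H3K4me3 (64.2%, against 18.9%). The share was 60.6% in the histone gene parts, 69.6% in the middle part and 40.4% between the blocks, so the surroundings were also above the list. Overlap of H3K4me1 with H3K27ac was 63 of 104 in the histone gene parts (60.6%, against 33.4%) and 9 of 69 in the middle part (13%). In the other direction, 47 of 57 H3K27ac regions overlapped H3K4me1 (82.5%, against 87.4%).

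**Figure D5:**
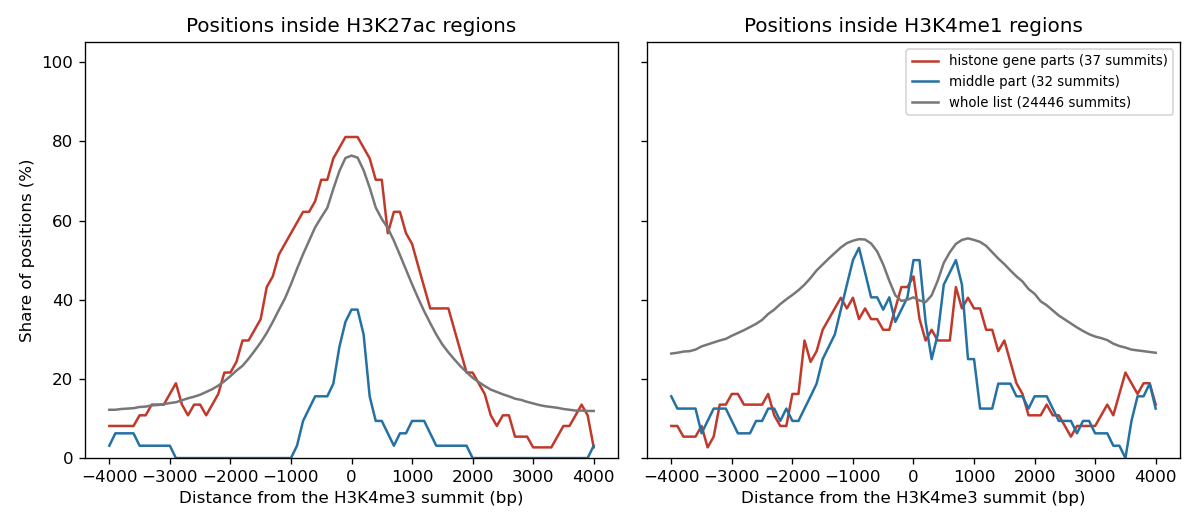
Share of positions (y axis, percent) inside H3K27ac (left) and H3K4me1 regions (right) by distance from H3K4me3 summits (x axis, bp), for the histone gene parts, the middle part and the whole list. H3K27ac at the summit is 81.1%, 37.5% and 76.4%. H3K4me1 at 2000 bp, averaged over both sides of the summit, is 13.5%, 12.5% and 41.4%.

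At the summits of H3K4me3, H3K4me1 was present in 33 of 69 cases (47.8%, 36.5 to 59.4), against 40.6% over the whole list. At 1000 bp to either side it was present at 38.4% of positions, against 55.0%. At 2000 bp it was 13% against 41.4%, with 13.5% in the histone gene parts and 12.5% in the middle part. The first block alone had 50% at 1000 bp, near the list, and 15.9% at 2000 bp. Between the blocks the share was 37.5% at 1000 bp and 23.2% at 2000 bp. The share at the summit went down with H3K4me3 strength. In the histone gene parts it was 3 of 3 in the weakest quartile, 8 of 9, 6 of 19 and 0 of 6 in the strongest, against 81.3%, 61.5%, 17% and 2.60% of the list. H3K27ac at 1000 bp was present at 55.4% of positions in the histone gene parts, 4.69% in the middle part and 43.9% in the list.

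The histone gene parts were also set beside a smaller cluster, the HIST2 block on chromosome 1 from 149.75 to 149.865 Mb, with limits rounded from general knowledge. It had 5 H3K4me3 regions, with signal values from 10.5 to 56.0. H3K27ac overlapped 4 of them, against 77.5% of the whole list, and the median acetylated share of the 5 was 95.5%. The corresponding median of the histone gene parts was 95.6%. Of the 4 HIST2 regions with a signal value of at least 20, 3 had H3K27ac. It was present at all 17 such regions of the histone gene parts and 10777 of 10859 of the list. None of the 5 HIST2 summits lay inside H3K4me1, against 40.6% of the list. That share of the list fell with H3K4me3 strength, however. It was 61.5% for signal values from 3.45 to 13.3, 17% from 13.3 to 41.9 and 2.60% for stronger regions. With 4 of the 5 HIST2 regions at a signal value of at least 20, the absence was not shown to be particular to HIST2. In the 750 kb between the blocks on chromosome 6, 20 of 28 H3K4me3 regions overlapped H3K27ac (71.4%, against 77.5%). The median acetylated share there was 59.9%, against 84.5% in the list. These areas hold few regions, and no test of a difference between them was made.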

How the data were processed

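The values were 3 deposited peak lists from ChIP-seq of HepG2, 1 for each mark. Per the submitters' processing notes, MACS2 and the hg19 genome (GRCh37) were used. The MACS2 version, the aligner, the threshold and the use of the control libraries are not given in the sources used here. In the deposited lists each peak has a signal value, by its column a fold enrichment ratio whose reference is not stated, and the −log10 of its q-value. The score column deposited by the authors was not used. Signal values were compared within a list only.

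Peaks on chromosomes 1 to 22 and X were kept as regions, and chromosome Y was left out. Overlap meant 1 bp or more. Percentiles and quartiles were taken over each whole list. Shares have 95% Wilson intervals. Medians were described with order-statistic intervals. The overlap functions were tested on 2000 simulated regions. Positions count from 1. Named regions were, in each block, the 5 strongest and 3 weakest H3K4me3 regions, the 3 widest H3K27ac and the 3 strongest H3K4me1 regions. Others are named where values set them apart, and were chosen after those were seen. The members, limits and lists were chosen with earlier results of these data known. Marks at gene starts were planned but not analysed, since no annotation of the regions' build was used here. Promoter sequences and gene order are from RefSeq, GRCh38.p14. Analyses used Python 3.11.15, numpy 2.4.6, pandas 2.3.3, scipy 1.17.1 and matplotlib 3.10.9.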

Additional observations from a re-analysis of the deposited data

How the results depend on the processing

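The alternatives for 13 values over both blocks gave 41 further values. Of these, 26 stayed within the 95% interval of the value or, for densities, within 1.5 times it, and 15 moved further. None had a test. No paired analysis was possible because each list pools its replicates, and for the same reason no replicate could be left out.

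Keeping the stronger 50% of each list gave densities of 30.4 per Mb for H3K4me3, 32.2 for H3K27ac and 33.9 for H3K4me1. A filter of this kind lowers densities by its construction, but for H3K4me1 it removed more than the list's share. Restriction to the histone gene parts gave 80.0 H3K27ac regions per Mb, raised the share of H3K4me3 regions with H3K27ac to 81.1% and gave a median H3K4me3 width of 2103 bp. When peaks needed a −log10 q-value of 5 or more, 81.2% of H3K4me3 regions overlapped H3K4me1, whose median width was then 682 bp and median signal value 3.03. The overlap with H3K4me1 depended most on its definition. It was 39.1% with 50% of the region covered and 52.2% when 200 bp on each side of the summit stood for the region. At 2000 bp beside summits 13% of positions lay inside H3K4me1. Joining peaks within 1000 bp gave 96.5 H3K4me1 regions per Mb, with a median width of 994 bp, and a median H3K27ac width of 2222.5 bp. The share of H3K4me3 regions with H3K27ac ranged from 49.3 to 81.1% over its alternatives. The depth of the libraries is unknown, so absence from a list is absence at the authors' threshold.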
